A study of Mus musculus with 4 samples.

Results

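The starch- and fat-digesting enzymes of the pancreas were followed through the NFIC binding sites of mouse pancreas as 8 genes: the amylases *Amy1*, *Amy2a5* and *Amy2b*, the lipases *Pnlip*, *Pnliprp1* and *Pnliprp2*, the carboxyl ester lipase *Cel* and the colipase *Clps*. The members were the rows of the annotated peak list that name one of these genes, which gave 11 of the 15824 peaks. NFIC peaks were named for 6 of the 8 genes, and *Pnliprp2* held 4 of the 11, with its strongest peak at -696 bp. *Cel* and *Clps* were named for no peak, although each had peaks within 100 kb that carry the names of neighbouring genes.

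The data come from chromatin immunoprecipitation and sequencing (ChIP-Seq) with an antibody to NFIC in whole pancreas of wild-type mice aged 8 to 12 weeks by the deposited description, with strain given as "Mixed". There were 3 NFIC ChIP libraries and 1 library of input DNA, the chromatin before immunoprecipitation. The authors deposited 1 merged peak list on mm10 with 0 columns of values per library. Every value below is therefore a single pooled value without replicate error, no test between libraries or conditions could be made, and the depth is unknown. Whole pancreas holds acinar, ductal, endocrine and other cells, which the list cannot tell apart, and it holds no expression values against which the tissue label could be checked.

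NFIC belongs to the nuclear factor I family, whose members bind DNA as dimers at a palindrome made of the arms TTGGC and GCCAA around a short spacer, and can also bind 1 arm alone. Acinar cells make and secrete amylase, which cleaves starch, and lipases, which cleave dietary fat together with colipase and bile salts. Their genes are known targets of acinar transcription factors such as NR5A2, GATA factors and PTF1A. With the partners of its own complex, PTF1A binds E-boxes and TC boxes.

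Of the 11 peaks, 7 are shown as sequences, because they carry the NFI sites, the similar amylase pair and the binding upstream of *Pnliprp2* described below. Each is 1 listed peak of 173 bases from the GRCm38 (mm10) sequence, read 5′ to 3′ on the strand of the gene it is named for. In the first set, capitals mark NFI palindromes with at most 1 mismatch in their 10 or 8 outer fixed bases, and the single arm TTGGCA or its reverse complement.

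Amy2b, -38623 bp, chr3:113195264-113195436, minus strand: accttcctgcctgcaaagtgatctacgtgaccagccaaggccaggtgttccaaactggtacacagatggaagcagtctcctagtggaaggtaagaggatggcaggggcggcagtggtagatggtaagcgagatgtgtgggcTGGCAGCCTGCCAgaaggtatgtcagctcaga
Amy1, -13201 bp, chr3:113590865-113591037, minus strand: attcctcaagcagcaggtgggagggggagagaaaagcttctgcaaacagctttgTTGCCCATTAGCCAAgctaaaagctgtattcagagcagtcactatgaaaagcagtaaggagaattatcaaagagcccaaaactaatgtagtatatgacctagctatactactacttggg
Pnliprp2, -6970 bp, chr19:58752667-58752839, plus strand: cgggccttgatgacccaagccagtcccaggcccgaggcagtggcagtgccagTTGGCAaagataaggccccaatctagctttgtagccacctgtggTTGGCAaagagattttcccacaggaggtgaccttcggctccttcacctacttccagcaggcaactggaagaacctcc
Pnliprp2, -696 bp, chr19:58758941-58759113, plus strand: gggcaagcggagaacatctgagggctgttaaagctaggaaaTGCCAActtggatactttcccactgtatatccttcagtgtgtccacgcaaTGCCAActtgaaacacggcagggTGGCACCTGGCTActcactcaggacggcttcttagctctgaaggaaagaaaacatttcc
Pnliprp2, -205 bp, chr19:58759432-58759604, plus strand: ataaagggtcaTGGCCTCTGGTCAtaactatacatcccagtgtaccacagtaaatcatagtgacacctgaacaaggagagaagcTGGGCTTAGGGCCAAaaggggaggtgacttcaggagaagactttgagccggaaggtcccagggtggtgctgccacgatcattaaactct

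In the second set, the peak in *Amy1* and the peak named for *Amy2a5* are paired, and capitals mark the bases that are identical in their alignment.

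Amy1, 433 bp, chr3:113574243-113574415, minus strand: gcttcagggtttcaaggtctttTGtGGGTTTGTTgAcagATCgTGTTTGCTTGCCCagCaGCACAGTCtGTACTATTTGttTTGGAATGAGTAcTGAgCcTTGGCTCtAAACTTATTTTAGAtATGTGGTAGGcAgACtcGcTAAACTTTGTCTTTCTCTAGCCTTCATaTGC
Amy2a5, 32286 bp, chr3:113226327-113226499, minus strand: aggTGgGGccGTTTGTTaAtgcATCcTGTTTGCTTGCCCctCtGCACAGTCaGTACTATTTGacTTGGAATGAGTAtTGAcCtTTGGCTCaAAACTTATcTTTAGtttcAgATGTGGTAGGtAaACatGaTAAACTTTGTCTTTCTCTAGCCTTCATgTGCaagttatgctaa

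Most peaks of these genes lay upstream and outside genes. Of the 11 peaks, 7 were intergenic by the authors' annotation, 3 were of the promoter-TSS class and 1 was intronic, beside 30.6%, 20.7% and 40.8% of all peaks in the list. Upstream of the transcription start site (TSS) lay 8 and downstream 3, while 44.5% of all peaks lay upstream. Having at least 1 named peak was shared by 6 of the 8 genes and by 35.9% of the 21774 protein-coding genes of the annotation. Having at least 4 was shared by 1 of the 8, *Pnliprp2*, and by 3.06% of protein-coding genes. A named peak from -1000 bp to the TSS was found for 1 of the 8, again *Pnliprp2*, against 10.3% of protein-coding genes.

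The peak score, which the authors give for each peak in a unit that is not given in the sources used here, ranged from 3.78 to 12.9 over the 11 peaks, with a median of 7.57. In the whole list the score ran from 3.39 to 68.1, with quartiles at 4.98 and 9.16 and a median of 6.57, which 9 of the 11 peaks reached. The 4 amylase peaks had scores of 3.78 to 6.97 (median 5.475) and the 7 lipase peaks 6.97 to 12.9 (median 8.56), so that the groups met at a single value, 6.97. All scores were whole multiples of 0.199 within rounding. If such a step is 1 sequenced tag, the 11 peaks rest on 19 to 65 steps, and 95% exact Poisson intervals, which cover counting error only, can be set beside the scores as a description and not as a test. The interval of the highest peak, 9.99 to 16.5, did not overlap those of 5 of the other 10 peaks. The interval of the *Pnliprp1* peak overlapped all 10 others. The focus ratio, the fraction of a peak's tags that lie as a focused site places them around the centre, was 0.613 to 0.767 with a median of 0.675, against 0.684 over the list.

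**Figure D1:**
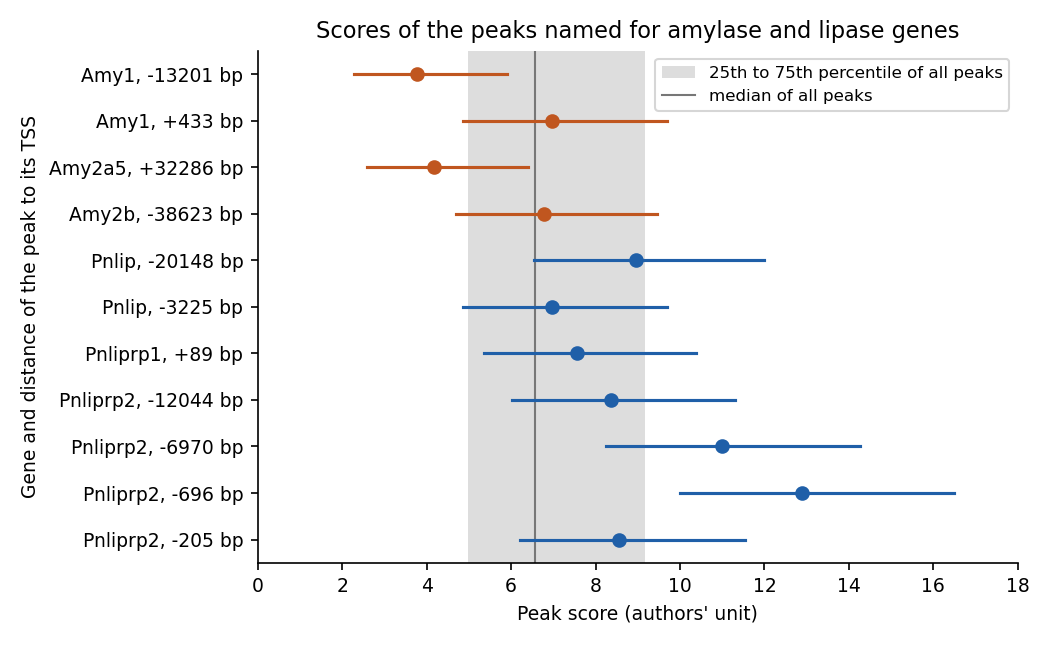
Peak score (x axis, the authors' unit) of each of the 11 peaks named for an amylase (orange) or pancreatic lipase gene (blue), with 95% exact Poisson intervals of the score steps as lines, which hold if 1 step is 1 tag. The grey band spans the 25th to 75th percentile of all 15824 peaks, 4.98 to 9.16, and the vertical line their median of 6.57; 2 amylase peaks lie to the left of the band and 2 *Pnliprp2* peaks to its right.

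The amylase genes encode the enzyme that cleaves the internal bonds of starch. *Amy1* is known as the salivary amylase gene, and *Amy2a5* and *Amy2b* encode pancreatic amylases. In the mouse they stand in a row on the minus strand of chromosome 3, with the further copies *Amy2a1*, *Amy2a2*, *Amy2a3* and *Amy2a4* and the pseudogene *Amy2-ps1* between them. The 8 genes span 430.1 kb on GRCm38, chr3:113147656-113577750, which held 3 peaks, or 0.698 per 100 kb. Over its known bases alone, since the assembly has a gap there, this was 1.07 per 100 kb, against 0.618 per 100 kb of known bases over the autosomes and X. No amylase gene had a named peak from -1000 bp to its TSS, while 10.3% of all protein-coding genes had one.

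*Amy1* (chr3:113555952-113577750) was named for 2 peaks. The stronger lay 433 bp downstream of the inner of its 2 annotated TSSs, inside the first intron of the longer transcript, with a score of 6.97 (35 steps, interval 4.86 to 9.70) and a focus ratio of 0.755. Its score stood at percentile 55.2 of the list. The other lay at -13201 bp, upstream of the outer TSS in intergenic sequence, scored 3.78 (19 steps, interval 2.28 to 5.91) and stood at percentile 3.37, the lowest of the 11. Their intervals overlapped, which is a description and no test of the difference. The weaker peak contained an NFI palindrome with 1 mismatch, TTGCCCATTAGCCAA on the minus strand, centred 25 bp from the peak centre.

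*Amy2b* (chr3:113147656-113156727) was named for 1 peak, 38623 bp upstream, with a score of 6.77 (34 steps, interval 4.69 to 9.46) and a focus ratio of 0.633. The authors' annotation places it in an endogenous retroviral repeat, MuRRS4-int, and it was the 1 peak of the whole list in that repeat. In the RefSeq annotation it lay within the pseudogene *Amy2-ps1* (chr3:113182234-113206694), 11344 bp downstream of its start. The peak sequence had 68 copies in the genome at 90% identity or more over at least 80% of its length, on 14 chromosomes, and of these only its own position overlapped a listed peak. All of its 50-base words were nevertheless unique, and 74.6% of its 36-base words. It held the 1 exact 8-base NFI core among the 11 peaks, TGGCAGCCTGCCA, in which the arms TGGC and GCCA flank 5 bases. The core was centred 61 bp from the peak centre. Such an exact core was in 13.4% of all peaks.

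*Amy2a5* (chr3:113249178-113258699) was named for 1 peak, 32286 bp downstream of its TSS and past its 3′ end, with a score of 4.18 (21 steps, interval 2.59 to 6.39). The focus ratio was 0.767, the highest of the 11, while the score stood at percentile 10.4. The peak overlapped no gene body and had no NFI palindrome with fewer than 3 mismatches. It held 1 E-box, 1 GATA word (AGATAA), 1 FOX word and 1 HNF1 word (GTTAAT).

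The *Amy2a5* peak and the intronic *Amy1* peak resembled each other in sequence. Of 158 aligned positions, 128 (81.0%) were identical, with 23 substitutions and 7 gap positions, and the longest run without a difference was 27 bases, TAAACTTTGTCTTTCTCTAGCCTTCAT. A search of the whole genome for matches over at least 80% of their length found each of the pair at its own position and at the position of the other, and nowhere else. Both positions were in the peak list, at 4.18 and 6.97, and their focus ratios of 0.767 and 0.755 were the highest and second highest of the 11. All 50-base words of both peaks were unique in the genome, so that no stretch of that length was shared by the pair. Between the paired sequences, the E-box, GATA, FOX and HNF1 words of the *Amy2a5* peak were not found in the *Amy1* peak.

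The sequence around the TSS of *Amy2a5* was repeated almost without change in the neighbouring amylase genes. The 300 bases around the TSS of *Amy2a5* (chr3:113258650-113258949), from 250 bases before to 50 after the start as RefSeq gives it on GRCm38, read as follows on the minus strand, with an E-box (CAGCTG, at -132 bp) and a TATA box (at -30 bp) in capitals.

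Amy2a5 promoter: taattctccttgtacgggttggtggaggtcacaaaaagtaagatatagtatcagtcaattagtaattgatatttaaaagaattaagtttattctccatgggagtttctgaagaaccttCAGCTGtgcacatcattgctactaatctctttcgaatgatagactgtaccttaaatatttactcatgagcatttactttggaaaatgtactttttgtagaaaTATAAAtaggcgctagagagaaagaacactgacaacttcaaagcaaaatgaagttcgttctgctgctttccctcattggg

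This sequence was present 5 times at 90% identity or more. The copies at *Amy2a4*, *Amy2a3* and *Amy2a2* were 100% identical and that at *Amy2a1* was 99.7% identical over the 300 bases, and none of its 50-base words was unique. RefSeq places the starts of these 4 genes differently, so that the centre of each copy lay 38 bp downstream of the annotated TSS, beside 100 bp upstream in *Amy2a5*. Of the 50-base words in the whole *Amy2a5* gene 5.64% were unique, in *Amy2a4* 0.623%, in *Amy2a3* 0.831% and in *Amy2a2* 0.571%, while *Amy2b* had 90.3% and *Amy1* 96.2%. Across the cluster 46.1% of words were unique, and 150000 of its bases (34.9%) are unknown in the assembly, in 1 gap. From 104 to 230 kb along the cluster, which runs from *Amy2a5* to that gap, no bin of 2 kb had more than 4.85% unique words, and these 126 kb held 0 peaks. The 3 peaks of the cluster and the peak upstream of *Amy1* all stood outside this stretch. The cluster had 142 bins with known sequence, and all 3 bins with a peak were among those with at least 80% unique words. Of the 53 bins of the cluster with at least 80% unique words, 3 held a peak. The share of such bins with a peak over the genome was not computed. Whether repeated sequence accounts for the stretch without peaks was not tested.

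**Figure D2:**
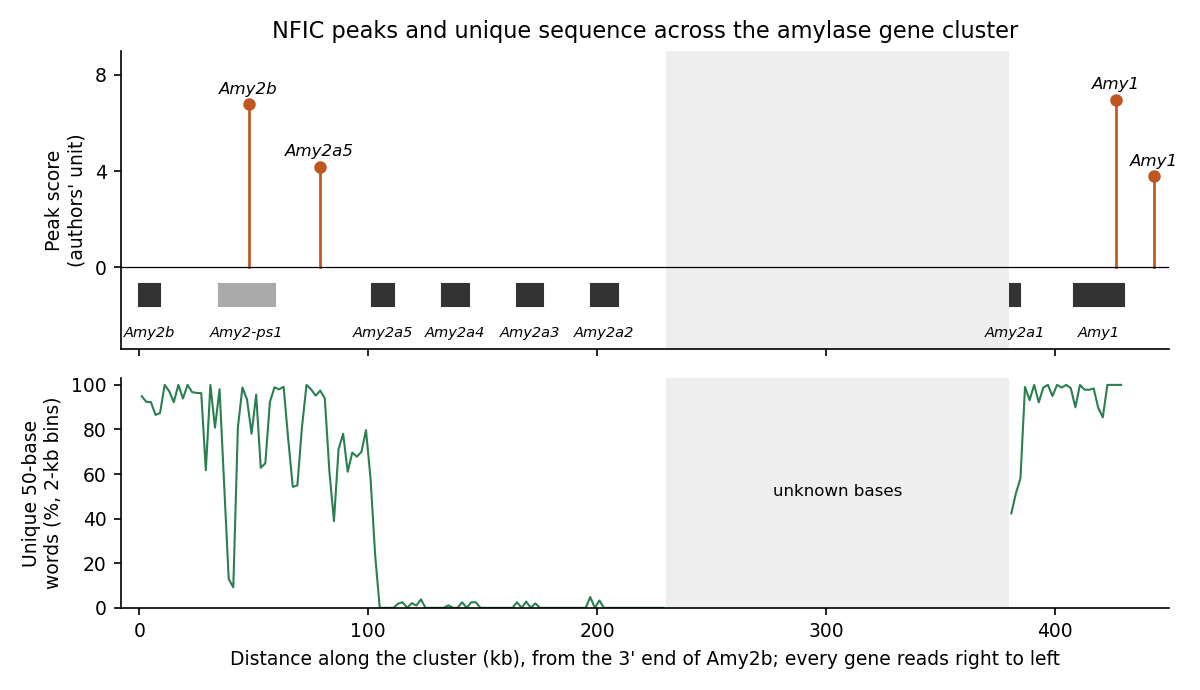
Upper panel: peaks of the amylase genes by position (x axis, kb from the 3′ end of *Amy2b*; all genes read right to left) and score (y axis, the authors' unit), each labelled with the gene the list names, over the gene bodies in black and the pseudogene in grey. Lower panel: share of 50-base words that occur once in the genome, in 2-kb bins; it stays at or under 4.85% from 104 to 230 kb, where no peak was listed, and the shaded block is the 150000 unknown bases.

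The pancreatic lipases hydrolyse dietary fats. *Pnlip* encodes pancreatic triglyceride lipase, *Pnliprp2* a relative that also cleaves galactolipids and phospholipids, and *Pnliprp1* a relative with little known triglyceride lipase activity. They lie in this order, with *Pnliprp1* between the others, on the plus strand of chromosome 19. The array from the start of *Pnlip* to the end of *Pnliprp2*, chr19:58670365-58777534, is 107 kb long, and 95.9% of its 50-base words were unique, with no unknown base. It held 6 peaks, 5 of them named for lipase genes, which is 5.60 per 100 kb.

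*Pnlip* (chr19:58670365-58681799) had 2 named peaks, both intergenic and upstream. That at -20148 bp (chr19:58650131-58650303) scored 8.96 (45 steps, interval 6.54 to 12.0) and that at -3225 bp (chr19:58667054-58667226) scored 6.97 (35 steps, interval 4.86 to 9.70), with overlapping intervals. Each held 1 TC box (TGGGAA), and neither had an NFI palindrome with fewer than 3 mismatches. No peak overlapped the promoter window or the gene body of *Pnlip*. The paper, however, reported NFIC binding at the *Pnlip* promoter by ChIP with quantitative PCR, against a control region. The missing peak is therefore not evidence that the promoter is unbound.

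*Pnliprp1* (chr19:58728887-58744169) had 1 peak, 89 bp downstream of its TSS (chr19:58728890-58729062), which overlapped an exon. It scored 7.57 (38 steps, interval 5.36 to 10.4), with a focus ratio of 0.613, the lowest of the 11. Among the 8 genes this was the peak nearest to a TSS, and 6.88% of protein-coding genes had a closer one. It held 1 E-box and 1 TC box and no NFI palindrome with fewer than 3 mismatches.

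*Pnliprp2* (chr19:58759723-58777534) had 4 peaks, all upstream. At -12044 bp (chr19:58747593-58747765) the score was 8.37 (42 steps), at -6970 bp it was 11.0 (55 steps, interval 8.25 to 14.3), at -696 bp it was 12.9 (65 steps) and at -205 bp it was 8.56 (43 steps, interval 6.20 to 11.5). All 4 intervals overlapped. The peak at -696 bp ranked 1500th in the list, at percentile 90.3, and that at -6970 bp stood at percentile 84.1. The distal pair lay in the 15.6 kb between *Pnliprp1* and *Pnliprp2*, 3510 and 8584 bp past the end of *Pnliprp1*, and the centres of the proximal pair were 491 bp apart.

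The *Pnliprp2* peak at -205 bp had an NFI palindrome with 1 mismatch, TGGGCTTAGGGCCAA on the plus strand, 5 bp from its centre and 200 bp upstream of the TSS. The peaks at -6970 and -696 bp each had 2 single arms TTGGCA on one strand or the other, and each also had 1 TC box and 1 GATA word. The word TTGGCA was in 2 of the 11 peaks and in 33.7% of all peaks. The shorter arm TTGGC alone was not counted. It also occurs in peaks without TTGGCA, among them the paired *Amy1* and *Amy2a5* peaks and the *Pnlip* peak at -3225 bp. The peak at -696 bp also had an 8-base core with 1 mismatch, TGGCACCTGGCTA, a form that 51.8% of all peaks had, and 1 E-box.

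**Figure D3:**
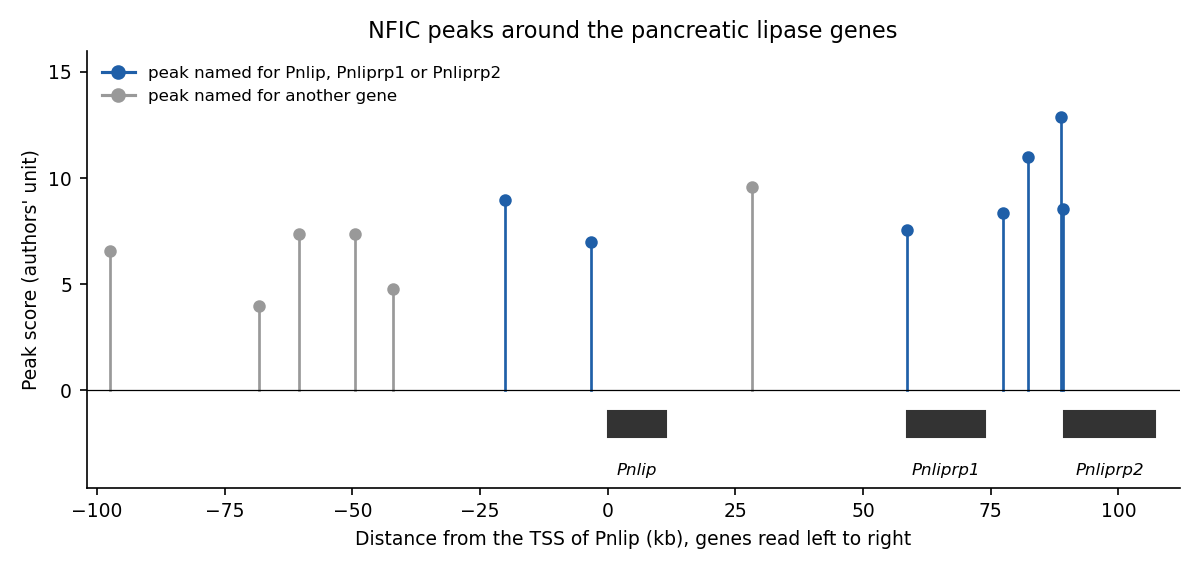
Peaks around the pancreatic lipase genes by distance from the TSS of *Pnlip* (x axis, kb; genes read left to right, as black boxes) and score (y axis, the authors' unit). Blue peaks are named for 1 of the 3 lipase genes and rise to 12.9 beside the start of *Pnliprp2*; grey peaks carry the names of other genes, among them that of 9.56 between *Pnlip* and *Pnliprp1*.

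*Cel* encodes the bile salt-dependent lipase that cleaves cholesteryl esters and other esters, and *Clps* encodes colipase, the small cofactor that holds pancreatic lipase on the fat droplet. Neither gene was named for any peak. The paper lists *Cel*, like *Amy2a5* and *Pnliprp1*, among genes with lower expression in the pancreas of *Nfic* knockout mice, which is not a measure of binding. *Cel* (chr2:28555819-28563403, minus strand) had its nearest peak 12105 bp upstream (chr2:28575422-28575594) with a score of 19.3, at percentile 98.0. This peak lay in an intron of the adjacent gene *Gtf3c5*, a subunit of a general factor of RNA polymerase III, and was named for it. It was the highest of the 32 peaks within 100 kb of any of the 8 genes. A second peak at -13210 bp, of 13.3, lay in *Gtf3c5* as well. In all, 9 peaks stood within 100 kb of *Cel*, with scores of 6.17 to 19.3, named for *Gtf3c5* (3 peaks), *Gfi1b* (2 peaks) and *Ralgds* (4 peaks).

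*Clps* (chr17:28558210-28560766, minus strand) had its nearest peak 30895 bp upstream (chr17:28591575-28591747), with a score of 10.8, in an intron of *Srpk1* and named for *Lhfpl5*. On the other side the nearest was 32888 bp away, at 6.97, and named for *Armc12*. There were 5 peaks within 100 kb, of which the highest, at 15.7, was also named for *Armc12*. The adjacent colipase-like gene *Clpsl2* had 0 named peaks. The sequence of both genes was mostly unique, with 97.9% of 50-base words in *Cel* and 90.6% in *Clps*.

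Counting every peak near a TSS, whatever its name, changed the picture for single genes. All 8 genes had a peak within 100 kb, as had 70.6% of protein-coding genes, and 4 of the 8 had one within 10 kb (*Amy1*, *Pnlip*, *Pnliprp1* and *Pnliprp2*), against 32.9%. The median protein-coding gene had 2 peaks within 100 kb, and 31500.5 bp to the nearest one. *Pnlip* had 13 peaks within 100 kb, and 0.248% of protein-coding genes had as many or more. *Pnliprp1* and *Cel* had 9 each (3.69% as many or more), *Pnliprp2* 8 (6.08%) and *Clps* 5 (21.3%). *Amy1*, *Amy2a5* and *Amy2b* had 2 each, the median value.

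These counts share peaks, since 1 peak can lie within 100 kb of several genes. The 32 distinct peaks had a median score of 7.37, and 11 of them were named for the 8 genes and 21 for others. Of the 13 around *Pnlip*, 5 were named for *1810007D17Rik* upstream, with scores of 3.98 to 7.37. Another lay 28257 bp downstream of the *Pnlip* TSS and 295 bp upstream of *1810018F18Rik*, scored 9.56 and stood in the 47.1 kb between *Pnlip* and *Pnliprp1*.

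**Figure D4:**
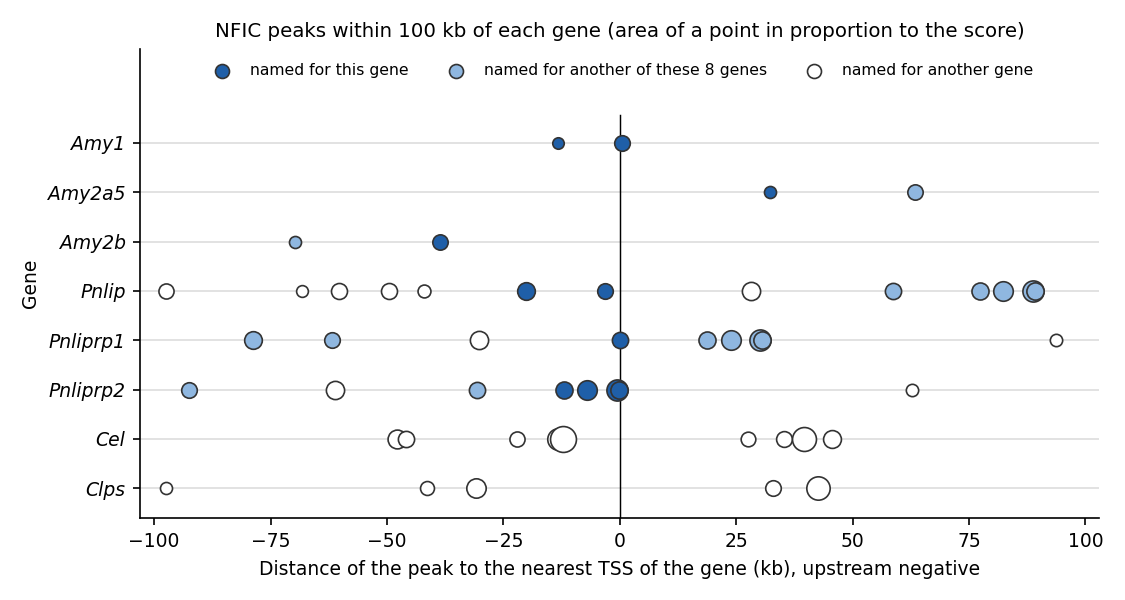
Every peak within 100 kb of the nearest TSS of each of the 8 genes, by distance (x axis, kb, upstream negative) and gene (y axis), with the area of a point in proportion to its score. Filled points are named for the gene or for another of the 8; the open points, which are the only ones for *Cel* and *Clps*, carry other names, and the largest is that of 19.3 at 12105 bp upstream of *Cel*.

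Across the 11 peaks, an NFI palindrome of the 10 fixed bases TTGGC and GCCAA around 5 free bases, with at most 1 mismatch and in 200 bp, was in 2, the *Amy1* peak at -13201 bp and the *Pnliprp2* peak at -205 bp. It was in 11.8% of all peaks. Words of other factors, acinar or general, were searched on both strands in the same windows. They are given with the share of all peaks that hold them. The E-boxes CAGCTG or CATCTG were in 4 of 11 peaks (32.5% of all peaks), the TC box TGGGAA in 5 (20.9%), the GATA word AGATAA in 3 (8.76%) and the NR5A2 word CAAGGNCA in 1 (8.95%), that of *Amy2b*. The FOX words TGTTTAC or TATTTAC and the HNF1 word GTTAAT were each in 1 (6.38% and 4.34%), that of *Amy2a5*. The AP-1 word TGANTCA was in 0 (5.26%) and the SP word GGGCGG in 1 (21.1%). Some of these words can overlap each other or the palindrome, and a match is a description of the sequence only.

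RefSeq promoters on GRCm38 were matched for 7 of the 8 genes, *Clps* being the exception, and gave 8 promoters because *Amy1* has 2. The NFI palindrome with at most 1 mismatch was in 1 of the 8, that of *Pnliprp2*, where it is the site under the -205 bp peak, and in 0.907% of the 32851 promoters of the same length. The TATA box TATAAA was in 4 of the 8 (13.6% of all promoters), at -26 bp in *Amy2b*, -30 bp in *Amy2a5*, -30 bp in *Pnlip* and -63 bp before the inner TSS of *Amy1*. The TC box was in 4 (25.6%), the E-box in 1 (30.6%) and the GATA word in 1 (11.2%), which was *Pnlip* with 2 copies. The single arm TTGGCA was in 1 (14.1%), that of *Pnliprp1*. The NR5A2 word was in 1 (6.71%), that of *Cel*, and the FOX words in 2 (6.54%), those of *Amy2a5* and *Pnliprp1*. HNF1, AP-1 and SP words were in 1 each (7.10%, 7.81% and 35.7%).

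The protease genes of the same cells gave the closest comparison. Of 9 elastase, chymotrypsin and carboxypeptidase genes in the annotation, 8 were named for a peak, with 12 peaks of 4.58 to 17.9 (median 8.56). A promoter peak in the window of -1000 bp to the TSS was listed for 4 of these 9, beside 1 of the 8 amylase and lipase genes. Over all protein-coding genes, 35.9% were named for a peak and 10.3% had one in that window. The protease genes with such a peak were *Cela2a* at -154 bp (17.9), *Ctrb1* at -164 bp (15.1), *Cpa1* at -443 bp (8.56) and *Cela3b* at -123 bp (6.37). Of 6 trypsin genes 2 were named, with 2 peaks, 1 of them at the promoter of *Try10* (-64 bp, 3.98). Of 10 other lipid-digesting enzymes and lipase relatives 6 were named for 16 peaks with a median of 8.17, and none had one from -1000 bp to the TSS. For the amylase and lipase genes, the promoter count was 2 from -1000 to 100 bp and 3 from -1000 to 1000 bp. Protease counts in those windows are not given here. None of the 50-base words of the *Amy2a5* promoter was unique. Of those of the *Amy2b* promoter 96.4% were unique, and of the *Pnlip* promoter 97.6%. The share was 100% for *Cel*, *Pnliprp1*, *Pnliprp2* and both promoters of *Amy1*. It was not computed for the protease genes. These lists are counts of 1 pooled peak list, and the differences between them were not tested.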

How the data were processed

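NFIC ChIP-Seq of mouse pancreas (3 libraries) and input DNA (1 library) was grouped by the labels. The authors deposited 1 merged, HOMER-annotated peak list on mm10. BWA, Picard and MACS2 are named in the submitters' processing notes without versions, and the settings are not given in the sources used here. The paper names RUbioSeq+ and HOMER in a paragraph on downloaded data. The peak score is the authors' score and was not rescaled, the focus ratio is a deposited fraction, and TSS distances were used as the authors gave them, negative upstream. With 0 columns per sample, there was no replicate error and no test, and the depth is unknown. The counting interval given holds only if 1 step is 1 tag. It does not cover differences between libraries or animals.

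The 8 genes, the comparison lists and the motif words were chosen with earlier results of these data known. Genes named are the 8, the other amylase genes, genes named for a peak within 100 kb of the 8, protein-coding genes whose TSS is within 50 kb, and genes of the comparison lists with a peak from -1000 bp to the TSS. *Ctrc*, of the protease list, was not found by name in RefSeq. Gene IDs of the list were matched to the GRCm38 RefSeq annotation (9080 of 9086), whose release may differ from that of the authors. Peaks were counted by named gene and by distance of their centre. Motifs were fixed words on both strands in 200 bp around the centres. Unique words are those of 50 bases that occur once on both strands of the genome, unplaced sequences included. Near copies were searched with BLAST 2.17.0 (E-value 1e-20) and the paired peaks were aligned locally with Biopython 1.88. The word count and the motif search were tested on simulated data. Alternatives varied the scores kept, the naming, the windows, the mismatches and the word length, and the 8-base NFI core was added after seeing the data. Python 3.11.15, numpy 2.4.6, pandas 2.3.3, scipy 1.17.1, pysam 0.24.0 and matplotlib 3.10.9 were used.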

Additional observations from a re-analysis of the deposited data

How the results depend on the processing

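The number of genes with a promoter peak was 1 from -1000 bp to the TSS, 2 from -1000 to 100 bp (with *Pnliprp1*), 3 from -1000 to 1000 bp (with *Amy1*) and 2 from -5000 bp to the TSS (with *Pnlip*). The number of peaks with an NFI palindrome was 2 with at most 1 mismatch (11.8% of all peaks) and 0 with none (1.34%). With the core of 8 fixed bases, chosen after seeing the data, it was 4 with at most 1 mismatch (51.8% of all peaks) and 1 with none (13.4%). With at most 2 mismatches in the 10 bases, 3 peaks had one (43.8% of all peaks). Among scores at or above the list's median, 9 peaks and 5 genes were left, and merging peaks with gaps of 1000 bp or less left 10. Naming by the nearest RefSeq TSS left 6 genes. The unique share of the amylase cluster was 42.0% with words of 36 bases and 52.0% with 100. No paired analysis was possible because the list holds 1 pooled value per peak, and for the same reason no replicate could be left out. An unlisted position can be unbound, below the authors' threshold or in sequence where reads could not be placed, and these cannot be told apart here.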
